A study of Mus musculus with 19 samples.

Results

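The genes described here code for collagens and for other glycoproteins of the extracellular matrix, read in sorted luminal cells (LCs) of the mouse mammary gland. The set is defined by gene names. It takes all genes named Col followed by a number, the letter a and a number, and 20 other genes: Fn1, Tnc, Sparc, Spp1, Nid1, Nid2, Hspg2, Agrn, Vcan, Bgn, Dcn, Lum, Fbn1, Fbln1, Fbln2, Postn, Thbs1, Thbs2, Vtn and Eln. The array carried 64 of these genes, 44 of them collagens, on 135 probes. Of these, 51 genes (32 collagens and 19 others) gave a signal that the scanner software called well above background on 4 or more of the 19 arrays, and 36 did so on all 19 arrays. They stood among 20669 genes that passed the same filter. The 13 genes that did not pass were Col4a3, Col15a1, Col6a4, Col6a5, Col6a6, Col19a1, Col22a1, Col23a1, Col24a1, Col27a1, Col10a1, Col28a1 and Nid2.

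The study asked how the loss of membrane signalling by estrogen receptor α changes the response of LCs to estradiol (E2) and progesterone (Pg). C451A-ERα mice carry a germline point mutation of the palmitoylation site that tethers the receptor to the membrane, so every cell of the animal is mutant, stroma included. Each array held RNA of the CD24+CD29lo cells of 1 C57Bl/6N female, sorted in a panel that also stained CD31 and CD45, and mutants were compared with wild-type littermates. All females were ovariectomized at 24 days of age by the labels, received a 60-day pellet 10 days later, were treated for 21 days and were 8 weeks old. Pellets held 0.01 mg E2 alone or with 1.5 mg Pg. The groups were wild-type with E2 (mice L67, L50, L72 and L52), C451A-ERα with E2 (L4, L58, L27, L76 and L51), wild-type with E2+Pg (L57, L62, L44, L47 and L21) and C451A-ERα with E2+Pg (L56, L18, L61, L53 and L63). No group went without E2, and the point mutation could not be read on the arrays.

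The extracellular matrix of the mammary gland has 2 main compartments. A basement membrane of collagen IV, laminins, nidogen and the proteoglycan perlecan surrounds each duct, and beyond it lies an interstitial stroma rich in fibrillar collagens I, III and V, which are made mainly by fibroblasts. Collagens are built from chains whose helical part repeats glycine with 2 other residues in between, and 3 chains wind into a helix. LCs line the duct lumen and are mostly kept from the basement membrane by the myoepithelial layer. Glycoproteins such as fibronectin, thrombospondin and tenascin bind cells and growth factors and are regulated in many tissues by hormones and by wounding.

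The sequences shown here belong to genes named in the results below. The oligonucleotide that read the triple helix of Col6a3, the collagen VI chain with the widest range of group means, is shown because its own bases display the repeat. It was the only 1 of 79 member probes that held such a run of codons beginning with GG, as all glycine codons do, in every possible place, 6 of 6. These codons are in capitals. By the scanner file the probe matched chr1:92689602-92690594 (mm9, minus strand), a span of 993 bases that is longer than the probe and so crosses an intron. The Col6a3 values below come from the brightest of its 3 probes, at chr1:92663663-92663722, unless said otherwise.
Col6a3 probe: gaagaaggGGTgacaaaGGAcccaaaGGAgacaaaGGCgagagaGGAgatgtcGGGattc

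The 250 bases before the start of 5 members are given from RefSeq (GRCm38.p6), for Col7a1 and Col17a1, whose means were lower with Pg, and for Col6a1, Col6a3 and Col4a4, whose means were lower in C451A-ERα. Of these differences that of Col7a1 in wild-type LCs passed the test. Capitals mark matches, on either strand, to an AP-1 site (TGANTCA), the core of an estrogen response element (GGTCA), a core motif of progesterone and glucocorticoid receptors (TGTTCT), a GC box (GGGCGG) or a TATA box (TATAAA). The full estrogen response element, GGTCA and TGACC with 3 bases between them, was searched as well, and it holds the core 2 times. Col7a1 lies at chr9:108953336-108953585 (plus strand), Col17a1 at chr19:47692043-47692292 (minus), Col6a1 at chr10:76726045-76726294 (minus), Col6a3 at chr1:90843972-90844221 (minus) and Col4a4 at chr1:82586850-82587099 (minus).
Col7a1: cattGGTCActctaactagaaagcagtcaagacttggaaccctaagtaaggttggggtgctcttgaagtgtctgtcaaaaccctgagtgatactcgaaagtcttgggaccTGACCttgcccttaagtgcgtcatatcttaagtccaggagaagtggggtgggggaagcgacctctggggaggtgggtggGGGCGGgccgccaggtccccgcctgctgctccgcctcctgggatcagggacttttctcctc
Col17a1: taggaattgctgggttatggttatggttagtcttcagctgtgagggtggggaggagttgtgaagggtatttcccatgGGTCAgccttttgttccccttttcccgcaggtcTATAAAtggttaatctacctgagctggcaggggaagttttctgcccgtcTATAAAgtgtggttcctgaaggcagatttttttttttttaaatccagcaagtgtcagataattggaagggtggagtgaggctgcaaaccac
Col6a1: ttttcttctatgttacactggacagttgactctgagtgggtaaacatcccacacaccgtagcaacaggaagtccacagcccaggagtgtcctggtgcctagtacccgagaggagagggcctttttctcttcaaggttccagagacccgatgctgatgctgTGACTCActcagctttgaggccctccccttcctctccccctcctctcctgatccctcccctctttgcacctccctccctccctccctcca
Col6a3: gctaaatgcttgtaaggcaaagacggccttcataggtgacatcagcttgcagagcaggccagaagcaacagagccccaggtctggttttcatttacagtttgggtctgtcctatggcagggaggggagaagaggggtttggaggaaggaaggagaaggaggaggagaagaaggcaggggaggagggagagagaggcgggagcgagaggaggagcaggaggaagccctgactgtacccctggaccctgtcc
Col4a4: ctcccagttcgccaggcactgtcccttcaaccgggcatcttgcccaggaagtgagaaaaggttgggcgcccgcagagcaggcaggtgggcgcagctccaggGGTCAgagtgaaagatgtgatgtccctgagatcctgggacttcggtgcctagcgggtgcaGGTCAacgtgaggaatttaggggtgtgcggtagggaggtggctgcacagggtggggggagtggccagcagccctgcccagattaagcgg

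In these windows the estrogen core motif stood at 2 places in Col7a1, 2 in Col4a4 and 1 in Col17a1, and the Col6a1 window held an AP-1 site that starts 90 bases before the start. The core was in 35.2% of all 32851 promoter windows of that length and in 12 of the 47 windows of members (25.5%), and the AP-1 site in 6.75% of all windows and in 1 of the 47. No member window held the full estrogen response element, which was in 0.0639% of all windows. GC boxes were in 28 of the 47 member windows (59.6%) and in 32.7% of all. The progesterone core motif was in 6 member windows (12.8%, against 16.1% of all) and the TATA box in 10 (21.3%, against 12.4%). The table matched 39 of the 51 genes. A match is a string of letters, not a site of binding.

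The arrays of L4, L18 and L27 stood apart. The median correlation with the other arrays of their own group was 0.9619 for L4, 0.9627 for L18 and 0.9674 for L27, the lowest of the 19. The same arrays had the lowest mean pan-luminal signal (14.91, 14.88 and 15.03, against 15.09 or higher in the other mice). Basal markers were highest in L18 and L4, at means of 10.67 and 10.42. Where a call of a member named below changes without these mice, both values are given. The upper quartile of the median spot signal was 248.5 to 490 per array, 26471 to 31258 probes per array were well above background, and no spot was saturated. Signals are log2 units after quantile normalization, and as probes differ in how well they bind, no gene's level is set against another gene's. Arrays were run on 5 slides, each with 1 mouse of every group except slide 3, which had no wild-type E2 mouse.

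All 8 pan-luminal markers and all 12 basal and myoepithelial markers were well above background on all 19 arrays, and so were 9 of the 12 fibroblast markers. Of the fibroblast list 11 markers passed, Tcf21 did not, and the mean log2 signal of the list ran from 7.66 to 8.14 in wild-type E2 mice, 6.95 to 8.35 in C451A-ERα E2 mice, 7.25 to 8.11 in wild-type E2+Pg mice and 7.16 to 8.14 in C451A-ERα E2+Pg mice. Among the other lists 6 of 7 pericyte, 7 of 8 endothelial, 10 of 10 immune and 5 of 7 adipocyte markers passed, and Abcc9, Tek, Adipoq and Plin1 did not. Fewer cells of a type and less RNA per cell cannot be told apart in these bulk samples.

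In the genotype comparisons no member was called, a call being an adjusted p under 0.05 with more than a 1.5-fold difference. The background was 0.0290% of all genes under E2 and 0.00484% under E2+Pg. At an unadjusted p under 0.05, 7 of the 51 members passed under E2 (1 higher and 6 lower in C451A-ERα), where 13.6% of all genes passed. Under E2+Pg 8 members passed (4 each way), where the share over all genes was 18.3%. Both member shares, 13.73% and 15.69%, were near the background. They include Col4a4 under E2 and Col25a1 under E2+Pg, which passed the filter mainly through the group in which they were brighter. The median log2 fold change of the members was −0.15 under E2 and 0.02 under E2+Pg, beside 0.03 and −0.03 over all genes.

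Progesterone gave 1 call in each genotype. Col7a1, the anchoring fibril collagen, fell with E2+Pg in wild-type LCs, where 1.33% of all genes were called. Thbs1, which codes for the matricellular glycoprotein thrombospondin 1, rose with E2+Pg in C451A-ERα LCs, where 2.46% of all genes were called. Hormone-sensing luminal markers had lower means with Pg as well: 8 of 10 had an unadjusted p under 0.05 in each genotype (7 lower and 1 higher in wild-type, 8 lower in C451A-ERα), and the list's median was −0.73 in wild-type and −1.1035 in C451A-ERα. In C451A-ERα 4 of them were called lower (Prom1, Foxa1, Ly6a and Pgr), and in wild-type 0. Their part in the values of the members was not tested. At an unadjusted p under 0.05, 9 members passed in wild-type LCs (2 higher, 7 lower) beside 16.3% of all genes, and 9 in C451A-ERα LCs (5 higher, 4 lower) beside 18.4%. That is 17.65% of the members in each genotype, again near the background. The response to Pg did not differ between genotypes for any member past the threshold, and 0% of all genes were called for this interaction. At an unadjusted p under 0.05 the interaction held 3 members (Thbs1, Col25a1 and Col4a4, or 5.88%) beside 9.39% of all genes. Col4a4 passed the filter through wild-type mice alone and Col25a1 mainly through C451A-ERα E2+Pg mice. Their p-values in this count are therefore not a test of the interaction.

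**Figure D1:**
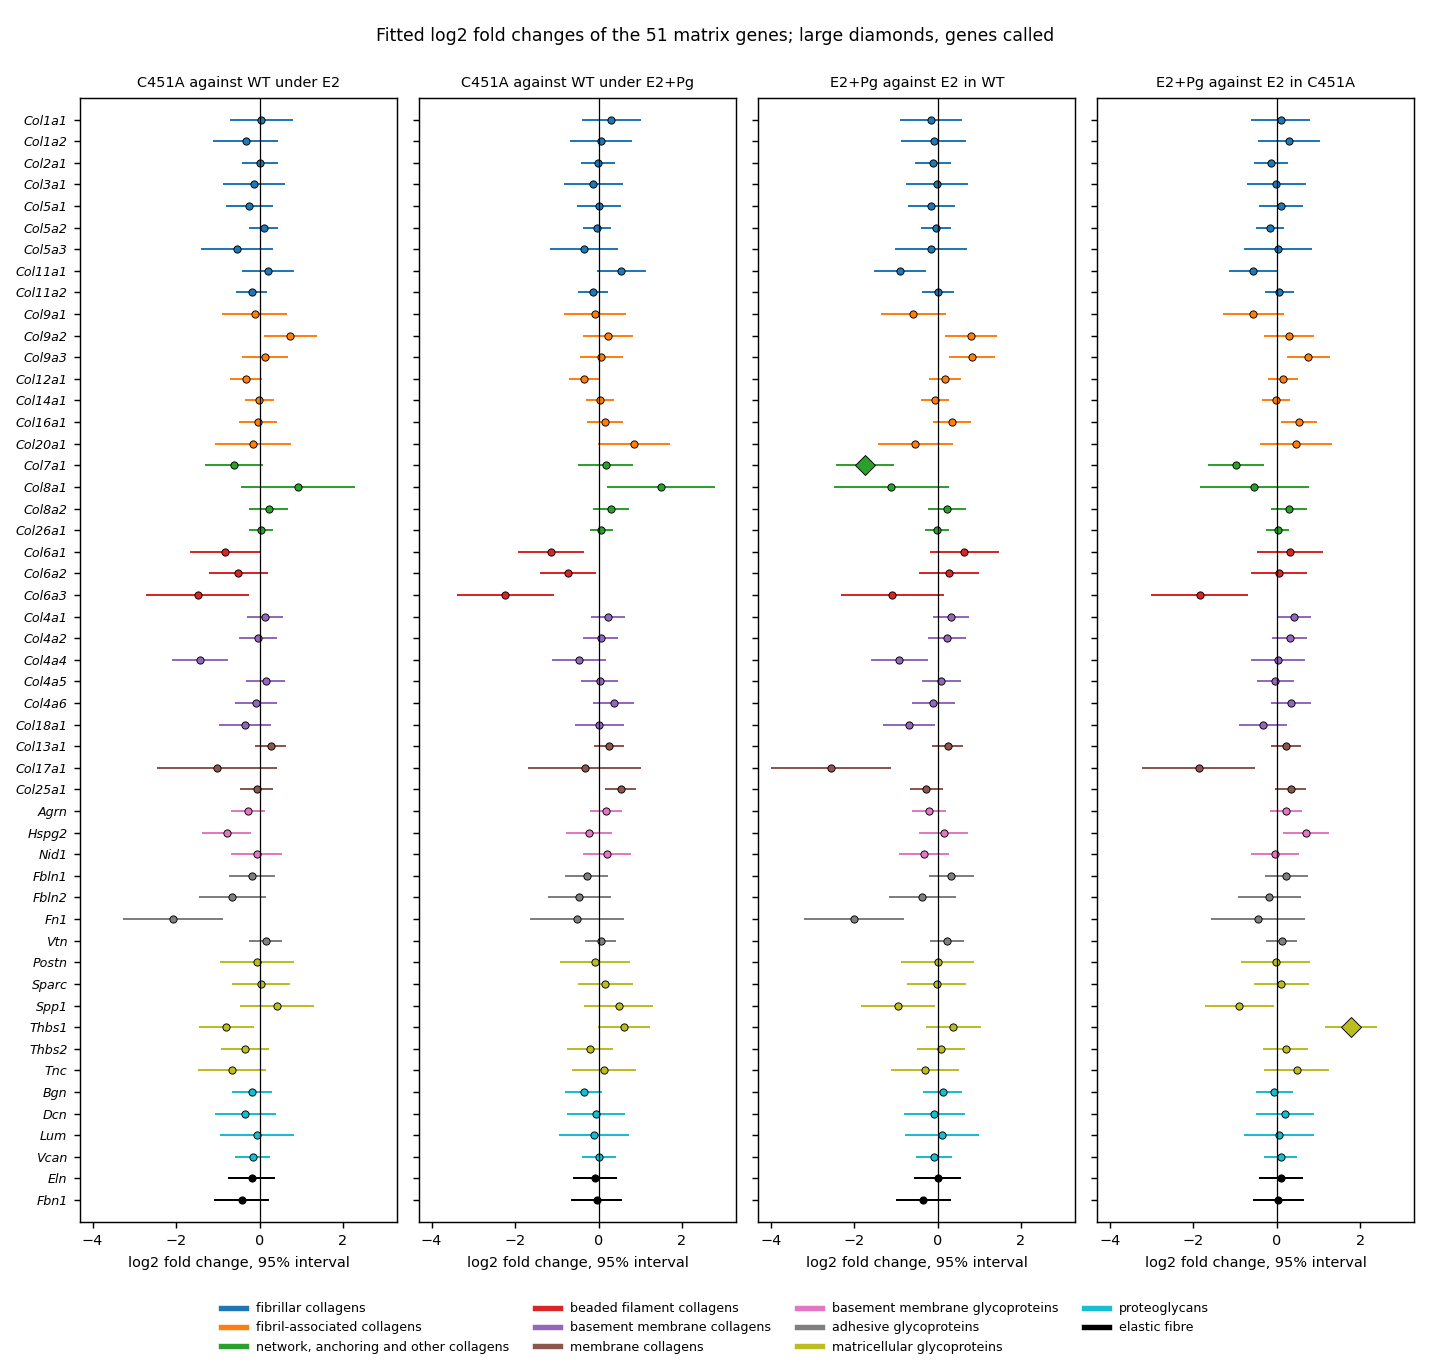
Fitted log2 fold change (x axis) of the 51 matrix genes (y axis, coloured by class) in 4 comparisons, with 95% intervals from the limma fit over 19 arrays; large diamonds are genes called. The Col7a1 diamond lies at −1.75 in wild-type and the Thbs1 diamond at 1.78 in C451A-ERα, and the interval of Col1a1 at the top covers 0 in all panels.

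The genes that varied most were few. The range of the 4 group means exceeded 1 log2 unit for 11 of the 51 genes and was widest for Col6a3 (3.33), Col17a1 (2.89), Fn1 (2.52) and Col8a1 (2.04). These were also genes with wide spread between mice of 1 group. The pooled within-group SD was 0.93 for Col6a3, 1.09 for Col17a1, 0.91 for Fn1 and 1.04 for Col8a1, beside a median of 0.45 over the members.

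**Figure D2:**
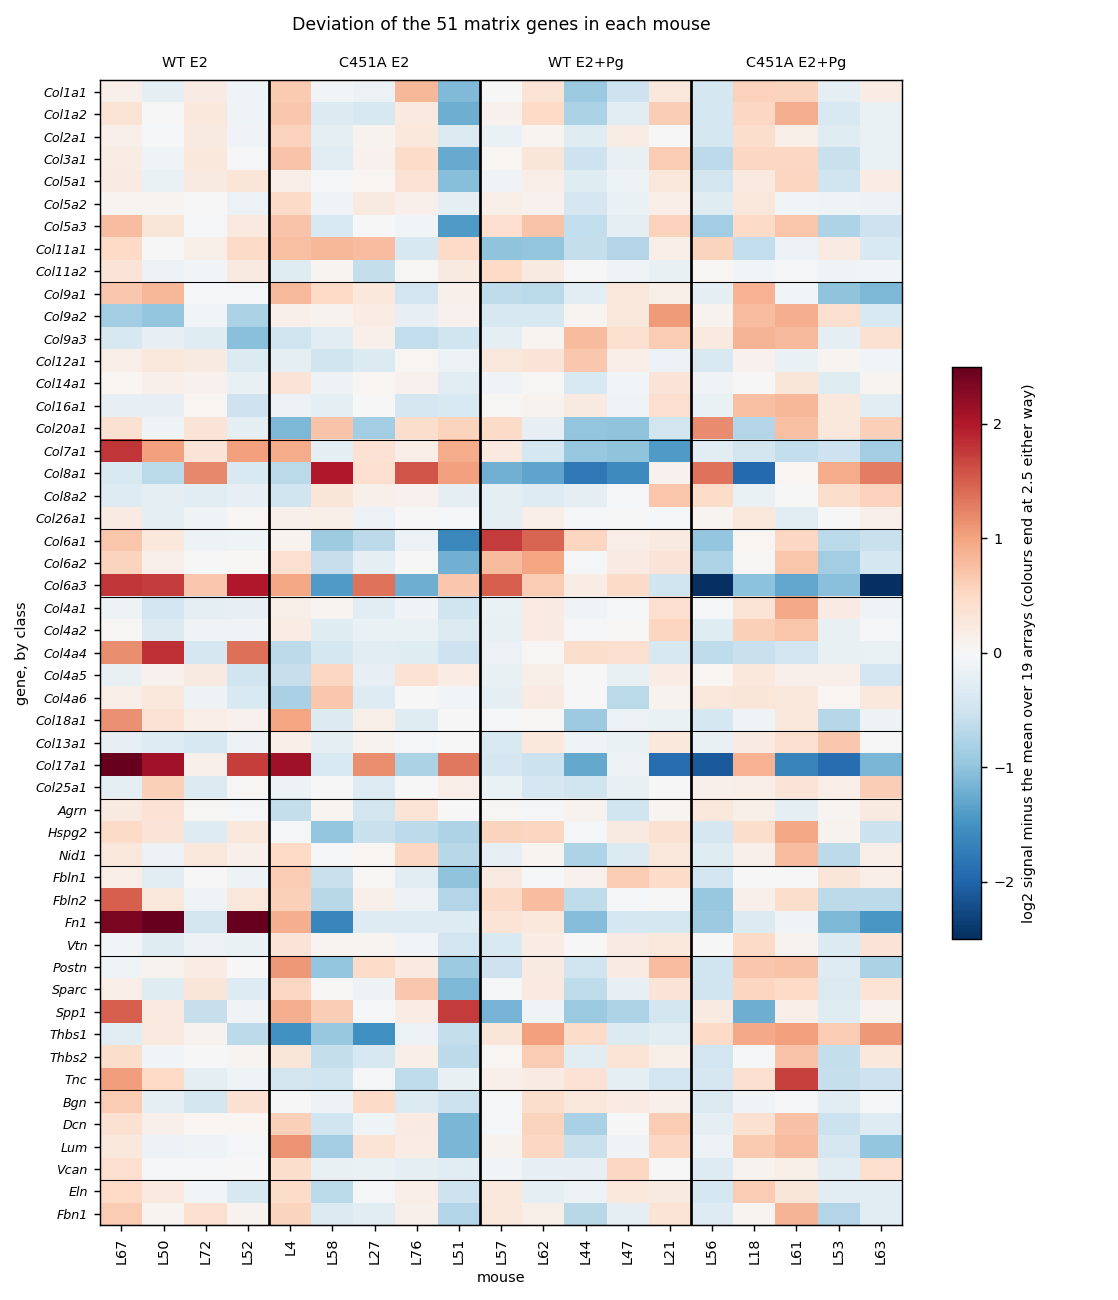
Log2 signal of each matrix gene (rows, by class) minus its mean over the 19 arrays in each mouse (columns, by group); red is above and blue below the mean. Fn1 is red in wild-type E2 mice L67, L50 and L52 and not in L72, Col6a3 is bluest in C451A-ERα E2+Pg mice L56 and L63, and most fibrillar collagens are blue in L51.

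Fibrillar collagens form the tensile fibres of the stroma, and 9 of 11 on the array passed. No fibrillar collagen was called in any comparison, and Col11a1, with Pg in wild-type LCs, gave the only unadjusted p under 0.05 in the 4 comparisons of groups. For Col1a1, the α1 chain of collagen I, log2 signal was 11.07, 10.70, 11.16 and 10.84 in wild-type E2 mice, in the order given above. It was 11.61, 10.88, 10.81, 11.79 and 9.85 in C451A-ERα E2 mice. With E2+Pg it was 10.95, 11.30, 10.02, 10.44 and 11.23 in wild-type and 10.52, 11.54, 11.51, 10.74 and 11.14 in C451A-ERα. All 4 groups overlapped, and the C451A-ERα minus wild-type difference was 0.05 (95% interval −0.68 to 0.77) under E2 and 0.30 (−0.38 to 0.98) under E2+Pg. The Pg difference of Col1a1 was −0.15 (−0.88 to 0.57) in wild-type and 0.10 (−0.58 to 0.78) in C451A-ERα.

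Col1a2, the partner chain of collagen I, had group means, with SD over 4 wild-type E2 mice or 5 mice of another group, of 12.23 ± 0.22 (wild-type E2), 11.90 ± 0.71 (C451A-ERα E2), 12.14 ± 0.58 (wild-type E2+Pg) and 12.20 ± 0.60 (C451A-ERα E2+Pg). Col3a1, the collagen of reticular fibres, had means of 11.41 ± 0.18, 11.28 ± 0.77, 11.40 ± 0.45 and 11.27 ± 0.57 in the same order. All 95% intervals of Col1a2 and Col3a1 covered 0. The widest, those of Col1a2, reached −1.09 for genotype under E2 and 1.01 for Pg in C451A-ERα, and smaller differences are not excluded by these data.

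Col11a1, a minor chain that limits fibril width, lay at 7.88, 7.40, 7.54 and 7.87 in wild-type E2 mice and at 6.39, 6.41, 6.80, 6.67 and 7.56 in wild-type E2+Pg mice. L21, at 7.56, lay within the range of the E2 mice and the other E2+Pg mice below it. The difference was −0.90 (SE 0.28), with an adjusted p of 0.12. In C451A-ERα the Pg difference of Col11a1 had the same sign, at −0.56. A second probe, above background on 10 arrays, gave −0.51 in wild-type and −0.37 in C451A-ERα. Col11a1 was singled out after its values were seen, as were Col8a1, Col6a2, Col9a2, Col9a3, Col16a1, Plod1, Cxcl12, Krt5, Krt14 and Trp63 below.

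In some mice many members were low or high at once. Among wild-type E2 mice L67 was highest for 27 of the 51 members, and its mean deviation from the 19-array mean was 0.43 for fibroblast and 0.44 for basal markers. Among C451A-ERα E2 mice L51 was lowest for 23 and L4 highest for 26. In wild-type E2+Pg mice L44 was lowest for 21 and L21 highest for 20, and in C451A-ERα E2+Pg mice L56 was lowest for 20 and L61 highest for 22. How often these mice were lowest or highest over all genes was not counted. Fibroblast markers lay alongside: the mean deviation from the 19-array mean was −0.66 for the 9 fibrillar collagens and −0.76 for the 11 fibroblast markers in L51, and 0.49 and 0.64 in L4. In L44 the values were −0.50 and −0.46, and in L61 0.35 and 0.43. The fibroblast list shares no gene with the members, and its part in the spread was not tested.

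**Figure D3:**
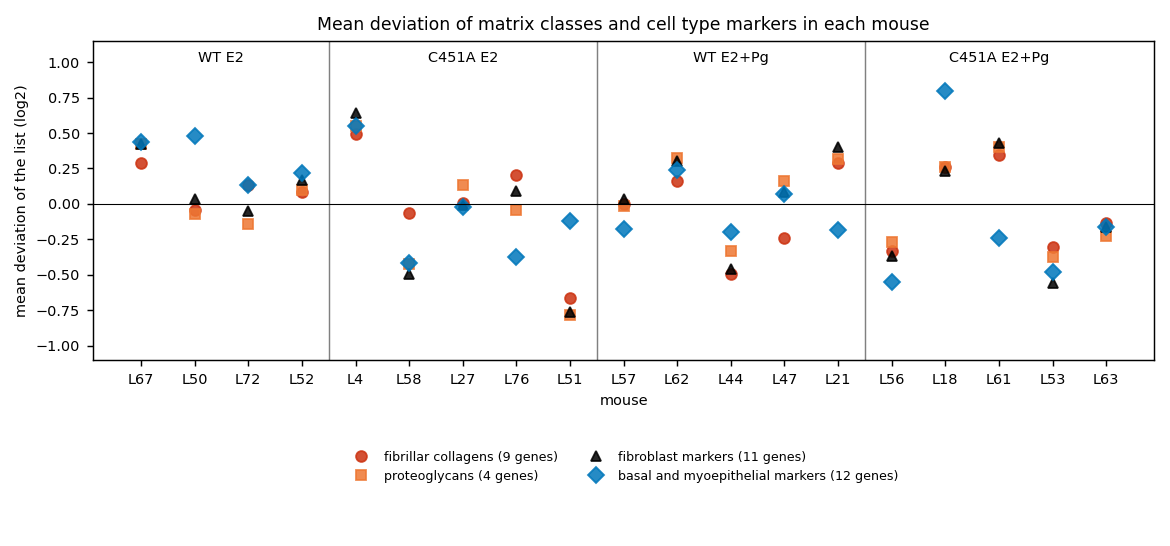
Mean deviation of each list from the 19-array mean (y axis, log2) in each mouse (x axis, by group), for 9 fibrillar collagens, 4 proteoglycans, 11 fibroblast markers and 12 basal and myoepithelial markers. In L51 the fibrillar collagens (−0.66), proteoglycans (−0.78) and fibroblast markers (−0.76) lie lowest, and in L18 the basal and myoepithelial markers (0.80) lie above the other lists.

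Fibril-associated collagens sit on the surface of fibrils, and 7 of 9 passed. None was called. Col9a3, a chain of collagen IX, lay at 7.41, 7.60, 7.50 and 6.76 in wild-type E2 mice and 7.58, 7.88, 8.59, 8.21 and 8.45 in wild-type E2+Pg mice. In C451A-ERα it lay at 7.31, 7.54, 7.92, 7.19 and 7.30 with E2 and 8.05, 8.65, 8.61, 7.55 and 8.18 with E2+Pg. In each genotype 1 mouse kept the groups from separating. The Pg difference was 0.83 (SE 0.25, adjusted p = 0.10) in wild-type and 0.76 (SE 0.24, adjusted p = 0.085) in C451A-ERα. Its partner chain Col9a2 was 0.80 higher with Pg in wild-type (SE 0.29, adjusted p = 0.17), and under E2 it was 0.74 higher in C451A-ERα than in wild-type (SE 0.29, adjusted p = 0.27). Col16a1 was 0.53 higher with Pg in C451A-ERα (SE 0.19, adjusted p = 0.15). For Col9a3 a second probe, above background on 9 arrays, gave Pg differences of 0.25 in wild-type and 0.09 in C451A-ERα.

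Among the network-forming, anchoring and other collagens 4 of 6 passed. Col7a1 forms the anchoring fibrils that hold a basement membrane to the stroma beneath it. Its log2 signal was 11.56, 10.79, 10.09 and 10.79 in wild-type E2 mice L67, L50, L72 and L52 and 10.03, 9.34, 8.83, 8.76 and 8.35 in wild-type E2+Pg mice L57, L62, L44, L47 and L21. The lowest E2 mouse lay just above the highest E2+Pg mouse, so the groups did not overlap.

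The fall of Col7a1 with Pg in wild-type LCs was −1.75 (SE 0.32), a 3.36-fold lower signal, with an adjusted p of 0.0134 and an exact two-sided permutation p of 0.0159. It was lower on all 4 slides that held both groups, by −1.33 to −2.44 on the log2 scale, and slide as a block gave −1.72 (adjusted p = 0.0190). Without L67 the difference was −1.50 and without L52 −1.75, and in both cases the adjusted p passed 0.05 (0.0576 and 0.0658). In C451A-ERα the same gene lay at 10.69, 9.55, 10.14, 9.94 and 10.69 with E2 and at 9.50, 9.32, 9.17, 9.26 and 8.90 with E2+Pg, again with no overlap. There the difference of −0.98 (SE 0.30) had an adjusted p of 0.084, and it was lower on 5 of 5 slides. The 2 responses differed by 0.77 (SE 0.44), with an adjusted p of 0.47. Col7a1 had 1 probe, at chr9:108886855-108886914 (mm9).

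Col8a1, a short-chain network collagen, lay at 12.03, 14.70, 13.12, 14.27 and 13.72 in C451A-ERα E2 mice and 14.06, 10.76, 12.75, 13.63 and 13.97 in C451A-ERα E2+Pg mice. In wild-type it lay at 12.32, 12.02, 13.91 and 12.32 with E2 and at 11.49, 11.38, 10.90, 11.10 and 12.80 with E2+Pg. Under E2+Pg C451A-ERα was 1.50 higher (SE 0.61, adjusted p = 0.23). L18 at 10.76 stood below every wild-type E2+Pg mouse while the other C451A-ERα mice lay at 12.75 or higher. Without L18 the difference was 2.07 (adjusted p = 0.0387), in a fit that called 5.31% of all genes. Without L4, L18 and L27 it was again 2.07 (adjusted p = 0.0059), in a fit that called 14.5%.

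Beaded filament collagens are the collagen VI chains, which form microfibrils next to basement membranes. Of 6 on the array 3 passed, Col6a1, Col6a2 and Col6a3, whose chains join in 1 molecule. By their brightest probes all 3 had lower means in C451A-ERα than in wild-type under both treatments, and none was called. Col6a1 and Col6a2 are neighbours on chromosome 10, with their probes 112.5 kb apart, and Col6a3 is on chromosome 1.

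Col6a3 log2 signal was 12.66, 12.61, 11.53 and 12.86 in wild-type E2 mice and 11.82, 9.45, 12.22, 9.64 and 11.54 in C451A-ERα E2 mice. With E2+Pg it was 12.36, 11.50, 11.05, 11.33 and 10.36 in wild-type and 8.13, 9.84, 9.56, 9.81 and 8.09 in C451A-ERα. Under E2+Pg every C451A-ERα mouse lay below every wild-type mouse, and under E2 the groups overlapped. L58 and L76 were the low C451A-ERα mice with E2.

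The genotype difference of Col6a3 under E2+Pg was −2.23 (SE 0.54), a 4.70-fold lower signal, with an adjusted p of 0.11 and an exact two-sided permutation p of 0.00794, the smallest that 5 mice against 5 allow. It was lower in C451A-ERα on 5 of 5 slides, by −1.50 to −4.22. Without L18 the adjusted p was 0.0368, in a fit that called 5.31% of all genes, and without L21 it was 0.0435, in a fit that called 1.12%. With L4, L18 and L27 all left out the difference was −2.42 (adjusted p = 0.00608), in a fit that called 14.5% of all genes. Under E2 the difference was −1.48 (SE 0.58, adjusted p = 0.26). The Pg difference of Col6a3 was −1.85 in C451A-ERα (SE 0.54, adjusted p = 0.072) and −1.09 in wild-type (SE 0.58, adjusted p = 0.36). Slide as a block gave an adjusted p of 0.18 for genotype under E2+Pg.

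The triple-helix probe of Col6a3 shown above gave −0.84 and −1.06 for genotype under E2 and E2+Pg and −0.87 and −1.09 for Pg in wild-type and C451A-ERα. A further probe, above background on 13 arrays, gave 0.24 and 0.02 for genotype and −0.86 and −1.09 for Pg. It matched chr1:92690484-92690543, which lies inside the span of the triple-helix probe and mostly in the stretch that probe skips. The brightest and the triple-helix probe were both lower in C451A-ERα under both treatments, and the further probe was not. All 3 probes had a negative sign with Pg. With the mean of the 3 probes, the further one included, the genotype difference under E2+Pg became −1.09 (adjusted p = 0.12). The Pg difference in C451A-ERα became −1.34 with an adjusted p of 0.0209.

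Col6a1 lay at 10.70, 10.26, 9.87 and 9.89 in wild-type E2 mice and at 10.08, 9.11, 9.35, 9.84 and 8.39 in C451A-ERα E2 mice. With E2+Pg it lay at 11.74, 11.45, 10.54, 10.16 and 10.22 in wild-type and 9.04, 10.06, 10.51, 9.33 and 9.44 in C451A-ERα. L61 and L18 had values near those of wild-type mice L47 and L21, and the other 3 mutants lay lower. The difference was −1.15 (SE 0.36, adjusted p = 0.17) under E2+Pg and −0.83 (SE 0.39, adjusted p = 0.36) under E2. Without L4, L18 and L27 the difference under E2+Pg was −1.24 (adjusted p = 0.0332), in the fit that called 14.5% of all genes. Over all mice it was lower on 5 of 5 slides, by −0.02 to −2.70. For Col6a2 it was −0.73 (SE 0.31, adjusted p = 0.24) under E2+Pg and −0.51 under E2. A further Col6a2 probe, above background on 11 arrays, gave −0.35 under E2+Pg and −0.24 under E2. Another, above background on 4 arrays, gave −0.02 and −0.04. With Pg Col6a1 and Col6a2 differed by 0.64 and 0.27 in wild-type and by 0.32 and 0.05 in C451A-ERα, where Col6a3 had a negative sign.

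Cxcl12, a fibroblast marker that is no member, differed between C451A-ERα and wild-type by −1.87 under E2 (adjusted p = 0.13) and by −1.48 under E2+Pg (adjusted p = 0.17). Of the 11 fibroblast markers 4 had a positive and 7 a negative difference under E2, and 5 a positive and 6 a negative one under E2+Pg. At an unadjusted p under 0.05, 2 passed under E2 (18.18%, beside 13.6% of all genes), both lower. Under E2+Pg 1 passed (9.09%, beside 18.3% of all genes), also lower. The list's median difference was −0.18 and −0.04, and its part in the collagen VI values was not tested. Basal and myoepithelial markers had 3 positive and 9 negative genotype differences under E2 (median −0.28) and 5 and 7 under E2+Pg (median −0.10). At an unadjusted p under 0.05, 16.67% of them passed under each treatment. Of the hormone-sensing luminal markers 30% passed under E2, all higher in C451A-ERα, and 50% under E2+Pg (1 higher, 4 lower). The part of these lists in the members' genotype differences was not tested either.

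Basement membrane collagens gave 6 of 8 genes that passed, and none was called. Col4a1 and Col4a2 code for the chains of the common collagen IV network and lie side by side on chromosome 8. For Col4a1 the group means ± SD, in the order used for Col1a2, were 8.30 ± 0.15, 8.43 ± 0.27, 8.62 ± 0.25 and 8.84 ± 0.42. Col4a2 had means of 7.82 ± 0.17, 7.78 ± 0.22, 8.04 ± 0.28 and 8.09 ± 0.46 in the same order. Genotype differences of both lay between −0.04 and 0.22. With Pg Col4a1 was 0.32 higher in wild-type and 0.41 higher in C451A-ERα (adjusted p = 0.41 and 0.24), and Col4a2 0.23 and 0.31 higher (adjusted p = 0.58 and 0.41). L61 had the highest value of both genes, at 9.52 and 8.63.

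Col4a4 codes for a chain of the collagen IV network of kidney and other specialised basement membranes. It passed the filter through wild-type mice alone, so its genotype difference is given as values without a test. It lay at 6.58, 7.24, 4.99 and 6.79 in wild-type E2 mice and was above background in 3 of the 4, L72 being the exception. In C451A-ERα E2 mice it lay at 4.75, 4.98, 5.13, 5.10 and 4.90 and was not well above background in any. The 3 bright wild-type mice lay well apart from L72 and the mutants.

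The mutant values of Col4a4 under E2 are only a bound. They were raised to at least the lowest signal well above background on their array. The wild-type mean was then 2.60-fold higher with the normalization used here. This ratio of means leaves out the spread between mice and is no lower limit on the genotype difference. The size moved with the processing: the fitted difference was −1.43, with normexp background correction −0.91 and with the processed signal −3.20. Under E2+Pg 3 of 5 wild-type mice and 0 of 5 mutants were above background, and the values were 5.26, 5.45, 5.86, 5.81 and 5.01 against 4.77, 4.87, 4.94, 5.22 and 5.25. The gene for its partner chain, Col4a3, did not pass the filter, and the differences of Col4a5 and Col4a6 between genotypes lay between −0.08 and 0.36.

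Col18a1, whose protein is cut to release endostatin, lay at 10.36, 9.58, 9.38 and 9.32 in wild-type E2 mice and 9.19, 9.25, 8.31, 9.07 and 9.04 in wild-type E2+Pg mice. All E2 mice lay above all E2+Pg mice. The difference was −0.69 (SE 0.28), with an adjusted p of 0.24. In C451A-ERα it was −0.33 (adjusted p = 0.56), with E2 mice at 8.88 to 10.20 and E2+Pg mice at 8.50 to 9.48.

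Membrane collagens span the plasma membrane, and 3 of 4 passed. Col17a1 is the collagen of hemidesmosomes, the rivets by which basal cells hold to the basement membrane. It lay at 10.21, 9.48, 7.51 and 9.11 in wild-type E2 mice and 6.96, 6.85, 6.09, 7.24 and 5.47 in wild-type E2+Pg mice, without overlap. In C451A-ERα it lay at 9.49, 6.99, 8.53, 6.60 and 8.71 with E2 and 5.29, 8.26, 5.71, 5.48 and 6.23 with E2+Pg, where L18 at 8.26 lay above the others.

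The Pg difference of Col17a1 was −2.55 (SE 0.67, 5.87-fold) in wild-type, with an adjusted p of 0.065 and an exact two-sided permutation p of 0.00794. It was lower on 4 of 4 slides, by −0.27 to −3.64. Without L18 the adjusted p in wild-type was 0.0274 and without L72 0.0194. Leaving out L4, L18 and L27 together gave an adjusted p of 0.0159. These 3 fits called 2.18%, 2.80% and 3.89% of all genes. L4, L18 and L27 are C451A-ERα mice. Leaving them out changes the pooled spread and the adjustment, and not the wild-type difference itself. In C451A-ERα the difference was −1.87 (SE 0.63, adjusted p = 0.11), without L18 −2.39 (adjusted p = 0.0287, with 4.71% of all genes called) and without L4, L18 and L27 −1.76 (adjusted p = 0.20). A further probe gave −1.26 and −0.73. Krt5, a keratin of basal cells and no member, had a Pg difference of −2.67 in wild-type (adjusted p = 0.068) and −1.91 in C451A-ERα (adjusted p = 0.13). Of the other 11 basal markers, 4 had a positive and 7 a negative difference in wild-type, and 8 a positive and 3 a negative one in C451A-ERα. Krt14 had −0.94 and Trp63 −0.36 in wild-type (adjusted p = 0.32 and 0.50). The part of basal cells in the Col17a1 and Col7a1 values was not tested.

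Col25a1, a membrane collagen best known from neurons, was above background on 5 arrays, 3 of them C451A-ERα E2+Pg mice and 0 of the 5 wild-type E2+Pg mice. Those groups lay at 5.30, 5.35, 5.51, 5.35 and 5.80 and at 5.02, 4.75, 4.68, 4.99 and 5.20, without overlap. With the wild-type values raised as for Col4a4, the C451A-ERα mean was 1.29-fold higher with the normalization used here. This too is no lower limit. The fitted difference of 0.53 became 0.27 with normexp background correction and 1.77 with the processed signal. Without the 3 bright C451A-ERα E2+Pg mice the gene would not have passed the filter, so no test is given.

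Basement membrane glycoproteins link the collagen IV and laminin networks, and 3 of 4 passed. Hspg2, which codes for perlecan, lay at 9.87, 9.72, 9.09 and 9.69 in wild-type E2 mice and 9.37, 8.43, 8.86, 8.75 and 8.63 in C451A-ERα E2 mice. With E2+Pg it lay at 9.97, 9.94, 9.38, 9.63 and 9.79 in wild-type and at 8.98, 9.85, 10.38, 9.49 and 8.86 in C451A-ERα. Under E2 only L4 lay within the wild-type range, and under E2+Pg the groups overlapped.

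The genotype difference of Hspg2 under E2 was −0.79 (SE 0.27), with an adjusted p of 0.20, and the sign held on 4 of 4 slides. Under E2+Pg it was −0.23 (adjusted p = 0.62). With Pg Hspg2 was 0.70 higher in C451A-ERα (SE 0.25, adjusted p = 0.14) and differed by 0.15 in wild-type (adjusted p = 0.81). A second probe, above background on 6 arrays, gave −0.03 for genotype under E2 and 0.04 for Pg in C451A-ERα. With the mean of the probes the genotype difference under E2 was −0.41 (adjusted p = 0.33). Agrn, for agrin, and Nid1, for nidogen, had differences between −0.33 and 0.22 in all 4 comparisons.

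Fibronectin is the main adhesive glycoprotein of provisional matrix, and its gene Fn1 had the clearest split between single mice. Log2 signal was 13.90 in L67, 14.14 in L50, 11.09 in L72 and 14.05 in L52 of the wild-type E2 group. It was 12.47, 9.93, 11.24, 11.24 and 11.24 in C451A-ERα E2 mice. With E2+Pg it was 11.91, 11.83, 10.47, 11.12 and 11.12 in wild-type and 10.64, 11.21, 11.48, 10.44 and 10.11 in C451A-ERα. Thus 3 wild-type E2 mice lay above all other 16 mice, and L72 lay among those.

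The C451A-ERα minus wild-type difference of Fn1 under E2 was −2.07 (SE 0.56), with an adjusted p of 0.13 and an exact two-sided permutation p of 0.0714. Without L72 the difference was −2.81 (adjusted p = 0.00135), in a fit that called 5.04% of all genes. Across slides it ran from −4.20 to 0.15, below 0 in 3 of 4. The Pg difference in wild-type was −2.004 (SE 0.56, adjusted p = 0.081), and without L72 it was −2.74 (adjusted p = 0.00187, with 2.80% of all genes called). Without L4, L18 and L27 its adjusted p was 0.0484, with 3.89% of all genes called. As none of these is a wild-type mouse, the difference itself did not change. In C451A-ERα the Pg difference was −0.45 (SE 0.53, adjusted p = 0.70), and under E2+Pg the genotype difference was −0.52 (adjusted p = 0.59). The 2 Pg responses differed by 1.56 (SE 0.77, adjusted p = 0.47). All 4 Fn1 probes gave the same picture, from −1.83 to −2.07 for genotype under E2. L72 was also the lowest wild-type E2 mouse for Col4a4, Col7a1, Col17a1, Col6a3 and Hspg2. It was not low for members in general. Of the 51 members it was lowest for 16 and highest for 10, while L50 was lowest for 17 and L52 for 16. Fbln1, Fbln2 and Vtn, the other adhesive members, differed by −0.65 to 0.33 in all 4 comparisons, and none was called.

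Matricellular glycoproteins signal to cells rather than bear load, and all 6 passed. Thbs1 codes for thrombospondin 1, an antiangiogenic protein that can activate latent TGFβ. It lay at 11.12, 11.68, 11.10, 12.48 and 12.04 in C451A-ERα E2 mice L4, L58, L27, L76 and L51 and at 13.11, 13.57, 13.66, 13.28 and 13.71 in C451A-ERα E2+Pg mice L56, L18, L61, L53 and L63. Every E2+Pg mouse lay above every E2 mouse. In wild-type the values were 12.38, 12.88, 12.71 and 11.97 with E2 and 12.94, 13.66, 13.08, 12.29 and 12.36 with E2+Pg, and the groups overlapped.

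Thbs1 rose by 1.78 log2 units with Pg in C451A-ERα (SE 0.29, 3.44-fold, 95% interval 1.18 to 2.38), with an adjusted p of 0.0031 and an exact two-sided permutation p of 0.00794. It was higher on 5 of 5 slides, by 0.79 to 2.56, and slide as a block gave an adjusted p of 0.0098. A second probe gave 1.69. Leaving out any 1 mouse kept the adjusted p at 0.0135 or lower. With L4, L18 and L27 left out together the difference was 1.37 with an adjusted p of 0.0692, and in that fit 0.542% of all genes were called.

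In wild-type the Pg difference of Thbs1 was 0.38 (95% interval −0.26 to 1.01, adjusted p = 0.53). The 2 responses differed by 1.40 (SE 0.42), with an adjusted p of 0.47, so the difference between genotypes did not pass the test. The C451A-ERα minus wild-type difference was −0.80 under E2 (SE 0.30, adjusted p = 0.24) and 0.60 under E2+Pg (SE 0.29, adjusted p = 0.27).

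**Figure D4:**
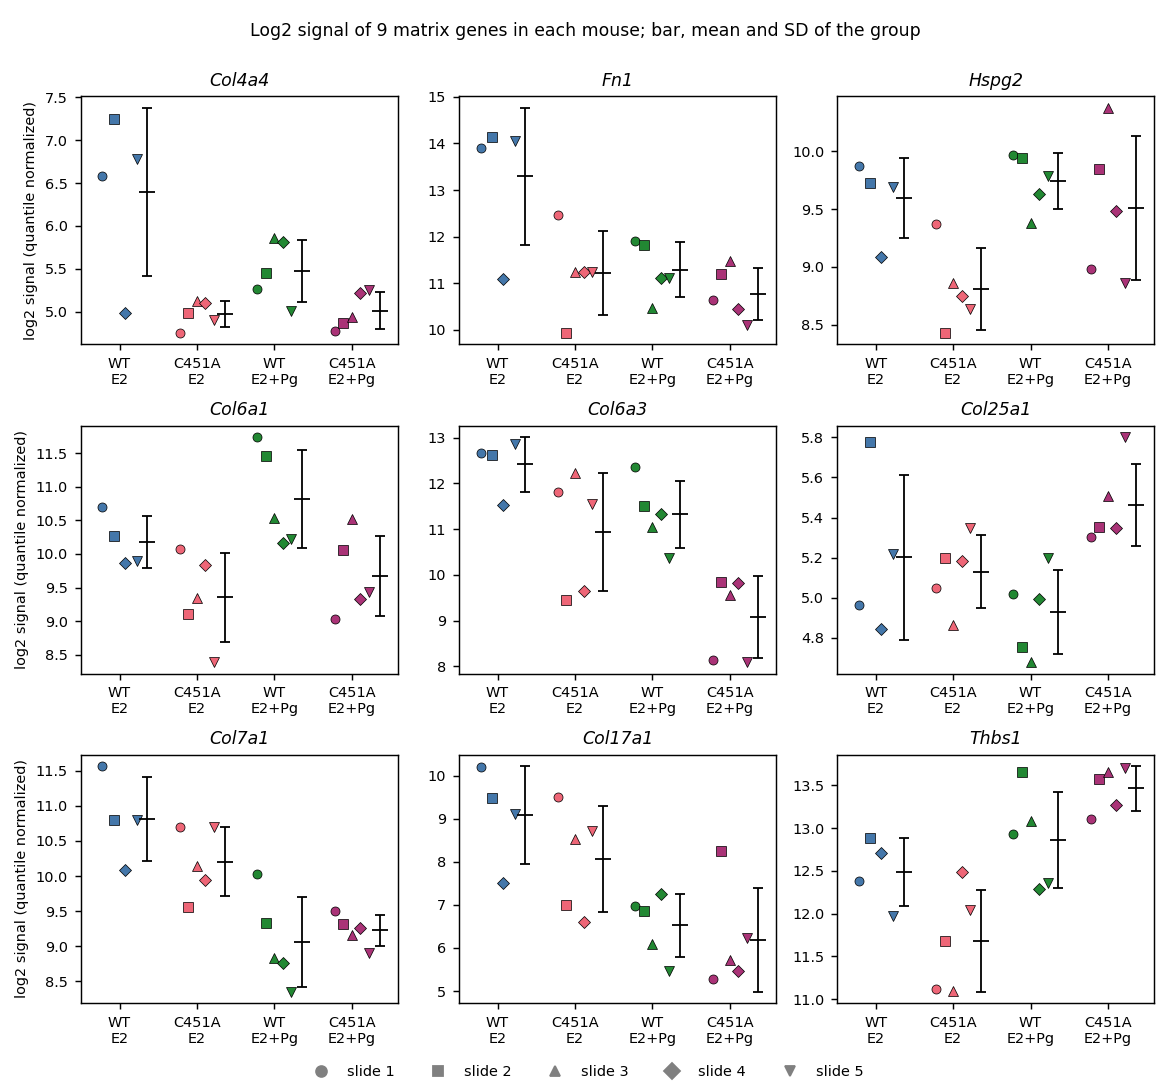
Log2 signal (y axis, quantile normalized) of 9 matrix genes in each mouse of the 4 groups (x axis), with marker shape for the slide and bars for mean and SD. Thbs1 in C451A-ERα E2+Pg mice lies at 13.11 or higher, above all C451A-ERα E2 mice, and Fn1 in wild-type E2 mice splits into 3 mice at 13.90 or higher and L72 at 11.09.

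Spp1, which codes for osteopontin, lay at 7.84, 6.58, 5.77 and 6.26 in wild-type E2 mice and 5.19, 6.24, 5.42, 5.58 and 5.88 in wild-type E2+Pg mice, of which 2 were above background. In C451A-ERα it lay at 7.25, 6.96, 6.31, 6.54 and 8.10 with E2 and 6.58, 5.13, 6.51, 6.05 and 6.43 with E2+Pg. The groups overlapped in both genotypes. The Pg difference was −0.95 (SE 0.41, adjusted p = 0.26) in wild-type and −0.89 (SE 0.38, adjusted p = 0.22) in C451A-ERα.

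Sparc, for osteonectin, a collagen-binding protein, had group means ± SD of 13.62 ± 0.32, 13.65 ± 0.71, 13.59 ± 0.38 and 13.76 ± 0.49 in the order used for Col1a2. Its differences lay between −0.03 and 0.17, and the widest 95% interval reached 0.80. Tnc, for tenascin C, was above background in 7 of 19 mice and in 0 of the 5 C451A-ERα E2 mice. It was highest in L61 at 7.21 and in L67 at 6.54, and its differences lay between −0.65 and 0.48. Postn and Thbs2 differed by −0.34 to 0.21.

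Of the proteoglycans, which bind water and tune fibril spacing, all 4 passed: Bgn, Dcn, Lum and Vcan. None was called, and no estimate had an unadjusted p under 0.05. Medians of the 4 were −0.18, −0.09, 0.01 and 0.07 in the order genotype under E2, genotype under E2+Pg, Pg in wild-type and Pg in C451A-ERα. Dcn, for decorin, spanned 11.33 in L51 to 13.21 in L61. The elastic fibre genes Eln and Fbn1 differed by −0.43 to 0.11, without a call.

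Collagen has to be hydroxylated, folded, trimmed and crosslinked, and 28 of 30 genes listed for these steps passed. None was called. Under E2 3 were lower and 2 higher in C451A-ERα at an unadjusted p under 0.05, a share of 17.86% beside 13.6% of all genes. Under E2+Pg 8 were lower and none higher, a share of 28.57% beside 18.3% of all genes. The lowest p for genotype under E2 was that of P4ha2, a prolyl hydroxylase subunit, with means of 11.19 in wild-type and 9.34 in C451A-ERα (−1.85, SE 0.46, adjusted p = 0.12). Under E2+Pg it was that of P3h4, a partner of lysyl hydroxylase (−0.78, SE 0.17, adjusted p = 0.11), and Plod1, a lysyl hydroxylase, followed with −1.195 (SE 0.27, adjusted p = 0.11). The median of the list was −0.10 under E2 and −0.28 under E2+Pg. With Pg the lowest p were those of Adamts3, a procollagen peptidase, in wild-type (0.71, adjusted p = 0.14) and of Bmp1, which trims the C-propeptide, in C451A-ERα (−0.51, adjusted p = 0.12).

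Matrix receptors were integrins, syndecans and other receptors for matrix, and 22 of 23 passed. With Pg 1 was called in each genotype, where 1.33% (wild-type) and 2.46% (C451A-ERα) of all genes were called. Sdc1, for the heparan sulfate proteoglycan syndecan 1, fell from a mean of 12.25 to 11.46 in wild-type (−0.78, SE 0.18, adjusted p = 0.0401). Itgb8, for the integrin β8 chain, rose from 8.00 to 8.77 in C451A-ERα (0.77, SE 0.19, adjusted p = 0.0382). In wild-type Itgb8 differed by 0.78 (SE 0.20, adjusted p = 0.065). No receptor was called for genotype. At an unadjusted p under 0.05, 9 of 22 passed under E2 (6 lower and 3 higher in C451A-ERα, 40.91% beside 13.6% of all genes), and the lowest p was that of Itgb6, for the integrin β6 chain, with means of 10.91 and 9.31 (−1.60, SE 0.47, adjusted p = 0.14). Under E2+Pg 3 passed (13.64%, beside 18.3% of all genes), with the lowest p for Itgb5 (−0.54, SE 0.14, adjusted p = 0.12).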

How the data were processed

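RNA of sorted LCs was hybridized to single-colour Agilent mouse arrays, 1 mouse per array. Intensity values in the deposited scanner files are in arbitrary units and came from Feature Extraction 10.10.1.1 per the file headers. A second deposited table gives log2 values, filtered, batch corrected and quantile normalized by the authors; it served as an alternative and covered 49 of the 51 genes.

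Here, outlier spots were left out, median signals were log2 transformed, repeat spots averaged and arrays quantile normalized (R 4.3.3, limma 3.58.1). The filter asked for a signal well above background on at least 4 arrays. The brightest passing probe stood for its gene. A limma fit of all 4 group means had 15 residual degrees of freedom, and p-values were adjusted by the Benjamini-Hochberg method over 20669 genes. Intervals are from that fit. Exact permutation tests were two-sided and could not go below 0.00794 (4 or 5 mice against 5). The 2 comparisons that use a group share its mice. Nothing in the sources used here says more of the replicates than that each was 1 mouse. The script was tested on simulated data. Members, lists and tests were chosen with earlier results of these data known. Named genes were members called, the 3 members of lowest p in each comparison and 10 set members. From each of the other lists, called genes or the gene of lowest p were named. A few genes were added after their values were seen, as stated.

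Groups came from the labels. A slide was also 1 scan and served as a block. The washing bath and labelling series for which the authors corrected are not given per sample in the sources used here. Alternatives were the slide block, array weights, another background correction and scaling, the deposited log2 table, other probe filters, the mean of a gene's probes, fits of only the groups compared and leaving out each mouse. Leaving out L4, L18 and L27 together was chosen after seeing the data.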

Additional observations from a re-analysis of the deposited data

Results flagged for a closer look

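In 72 groups of values, those of the 18 named genes in each of the 4 groups, 2 had 1 mouse far from the others, where chance gives about 5%. Fn1 in L72, a wild-type E2 mouse, was 11.09, and the other 3 mice of its group lay between 13.90 and 14.14. Col18a1 in L44, a wild-type E2+Pg mouse, was 8.31, and the other 4 lay between 9.04 and 9.25. No cause was tested for either.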

How the results depend on the processing

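Of 484 values of members under alternatives (17 results, of which Col8a1 under E2+Pg and Col17a1 in C451A-ERα were added after seeing the data), 448 kept their direction and side of the threshold, 33 passed it in addition, 3 lost it and 0 changed sign. Counts of members called were 0, 0, 1, 1 and 0 (genotype under E2, genotype under E2+Pg, Pg in wild-type, Pg in C451A-ERα, interaction). The share of all genes called is given with each alternative, and share and count did not always move together. For Pg in C451A-ERα the mean of a gene's probes raised the count from 1 to 2. There the share fell from 2.46% to 2.16%. Whether members moved more than other genes was not tested. Array weights gave 13, 4, 8 and 4 in the first 4 comparisons, where they called 10.8%, 12.7%, 9.12% and 3.41% of all genes. The authors' value table gave 1 (Col4a4, 0.676% of all genes) for genotype under E2 and 3 (Col17a1, Col7a1 and Fn1, 1.99%) for Pg in wild-type. Fitting only the groups compared gave 2 for Pg in wild-type (1.52%), and the mean of a gene's probes gave 2 (Col6a3 and Thbs1) for Pg in C451A-ERα (2.16%). Without L4, L18 and L27, a choice made after seeing the data, the counts were 4 for genotype under E2+Pg (14.5%), 3 for Pg in wild-type (3.89%) and 0 for Pg in C451A-ERα (0.542%). Leaving out 1 mouse gave 0 to 2 for genotype under E2 (2 without L72, 5.04%), 0 to 2 for genotype under E2+Pg (1 without L21, 1.12%, and 2 without L18, 5.31%) and 0 to 4 for Pg in wild-type (0 without L67, 0.377%, or L52, 0.135%, 2 without L18, 2.18%, and 4 without L72, 2.80%). It gave 1 to 3 for Pg in C451A-ERα (3 without L58, 3.57%, or L18, 4.71%, and 2 without L53, 2.38%) and 0 to 1 for the interaction (Col4a4 without L72, 0.116%). The slide block changed no count of members. A mouse outside the groups compared enters a comparison only through the pooled spread and the adjustment. The cause of these shifts was not otherwise tested. Col4a4 passed the filter through wild-type mice alone. Values near background, as for Col4a4, Col25a1, Spp1 and Tnc, are limited by the signal over background.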
